A study of Saccharomyces cerevisiae with 24 samples.

Results

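The plasmids followed here carry 8 genes that act at the end of the high osmolarity glycerol (HOG) pathway of budding yeast: the transcription factor genes HOT1 (YMR172W), SKO1 (YNL167C), MSN1 (YOL116W), MSN2 (YMR037C), MSN4 (YKL062W) and SMP1 (YBR182C) and the protein kinase genes RCK1 (YGL158W) and RCK2 (YLR248W). They were chosen by systematic name, and each had a single barcode, so they are 8 of the 4871 rows of the read count table. The table comes from a pooled competition of the MoBY 2.0 library, in which every plasmid is a high-copy 2-micron plasmid with a gene of strain S288C, its native flanking sequence, a DNA barcode and resistance to the drug G418. The hosts were 4 diploid strains of Saccharomyces cerevisiae, each sampled after 10 generations of growth in rich medium (YPD) at 30°C with 0.7 M NaCl (generation 10) and before that growth (generation 0), in 3 biological replicates, which gave 24 libraries in 8 groups. All cultures were kept on G418 at 200 mg/L to hold the plasmid. BY4743 is the laboratory strain, homozygous for his3Δ1, leu2Δ0 and ura3Δ0 and heterozygous for lys2Δ0 and met15Δ0. BC187 is a vineyard strain, NCYC3290 a West African strain and YPS128 an isolate from North American oak.

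When the medium becomes too salty, sensor branches at the cell surface activate a kinase cascade that ends in the MAP kinase Hog1, which enters the nucleus and changes the transcription of stress genes. Hot1, Sko1, Msn1, Smp1 and the pair Msn2 and Msn4 are the factors through which much of that response is written, and Rck1 and Rck2 are related kinases of the calmodulin kinase family, of which Rck2 is phosphorylated by Hog1 and acts on translation. An extra copy on these plasmids is driven by the gene's own promoter, so its output can itself depend on salt. A barcode that falls may mark cells that grew more slowly or cells that kept fewer copies of that plasmid, and the alternatives cannot be told apart here. BY4743 is described as carrying more copies of these plasmids than the wild strains, which goes with every comparison that includes it. No library grown without NaCl was analysed here, so the values are those of growth in salt and not of a response to salt.

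Library depth and the spread of replicates differed between strains. Over the rows that stayed at or under 50000 reads in every library, the depth at generation 10 was 501261 to 1868859 reads for NCYC3290 and 1679115 to 5010411 for YPS128, far below the 11962164 to 18609776 of the other strains, and at generation 0 it was 8407149 to 23477556 throughout. The 10 most abundant barcodes took 89.8 to 95.4% of all reads at generation 10 in NCYC3290 and 83.1 to 91.8% in YPS128, against at most 1.49% at generation 0 in any strain. Replicates were tight in BY4743 and BC187, with a biological coefficient of variation of 0.126 for BY4743 and 0.11 for BC187, and wide in NCYC3290 (0.855) and YPS128 (0.539). Values below are reads per 1000000 of that capped total (normalised reads). Fold changes are log2 of generation 10 over generation 0 with their standard errors (SE), and FDR stands for the p of edgeR's quasi-likelihood test after Benjamini-Hochberg adjustment over every gene tested in that fit. A gene is said to have fallen or risen only at an FDR under 0.05. Over all genes the fold change had a median of 0.01 in BY4743 and -0.05 in BC187, and of -0.56 in YPS128 and -1.58 in NCYC3290. Changes in the last pair of strains are therefore also given relative to that median, which depends on the scaling: TMM factors put it at 0.48 in NCYC3290.

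All 8 genes passed the filter on low counts in every strain. In BY4743, HOT1, MSN2, MSN4 and RCK2 fell and none rose (4 of 8, where 19.5% of all 4186 genes fell and 18.2% rose, 37.7% together). In BC187, HOT1, SKO1, MSN2 and MSN4 fell and RCK2 rose (5 of 8, where 38.1% of 4166 genes fell and 28.5% rose, 66.7% together). In NCYC3290, HOT1, SKO1, MSN1 and MSN2 fell and none rose (4 of 8, where 26.1% of 4171 genes fell and 1.89% rose, 28% together). In YPS128 edgeR's test called 0 of the 8, where 8.47% of 4157 genes fell and 4.11% rose (12.6% together), and 4 of the 8 (HOT1, MSN2, MSN4 and RCK1) had an unadjusted p under 0.05, as did 35.8% of all genes. HOT1 and MSN2 were thus the genes that fell in 3 of the 4 strains, and in YPS128 they had the lowest estimates of the 8. The median change of the 8 was -0.44 for BY4743, -0.51 for BC187, -0.84 for YPS128 and -3.13 for NCYC3290.

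Counted without a test, the 3 generation 10 values lay below all 3 generation 0 values for 5 of the 8 genes in BY4743, where 28.7% of all genes did, and above them for 0, where 27.4% did. The counts were 5 below and 1 above in BC187, where 40.8% and 31.3% of all genes did so. They were 6 below and 0 above in NCYC3290 (60% and 3.45% of all genes), and 5 below and 0 above in YPS128 (45.1% and 9.67%). The number of members below was therefore nearest to the general share in NCYC3290 and YPS128. The calls in NCYC3290 depended on the scaling. With TMM factors MSN1 alone was called, where 473 of 4171 genes were, and MSN2, HOT1 and SKO1 had FDRs of 0.072, 0.1 and 0.088. The uncalled changes of MSN4, SMP1 and RCK1 turned to 0.03, 1.25 and 0.67. In a joint fit of all libraries with 1 spread, none of the BY4743 calls and only the MSN2 call in BC187 passed. Of all 4215 genes, 70 passed there in BY4743 and 382 in BC187. In NCYC3290 7 of the 8 genes passed, 6 as falls and RCK2 as a rise (1.76, FDR = 0.047), where 2469 of the 4215 genes passed. In YPS128 2 of the 8 passed. The 2 in YPS128 were MSN2 (FDR = 0.0035) and HOT1 (FDR = 0.0042). DESeq2 also called falls of MSN2 (FDR = 0.0052) and HOT1 (FDR = 0.0081) there, as did edgeR's test with the replicate number as a block (FDR = 0.021 and 0.014).

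**Figure D1:**
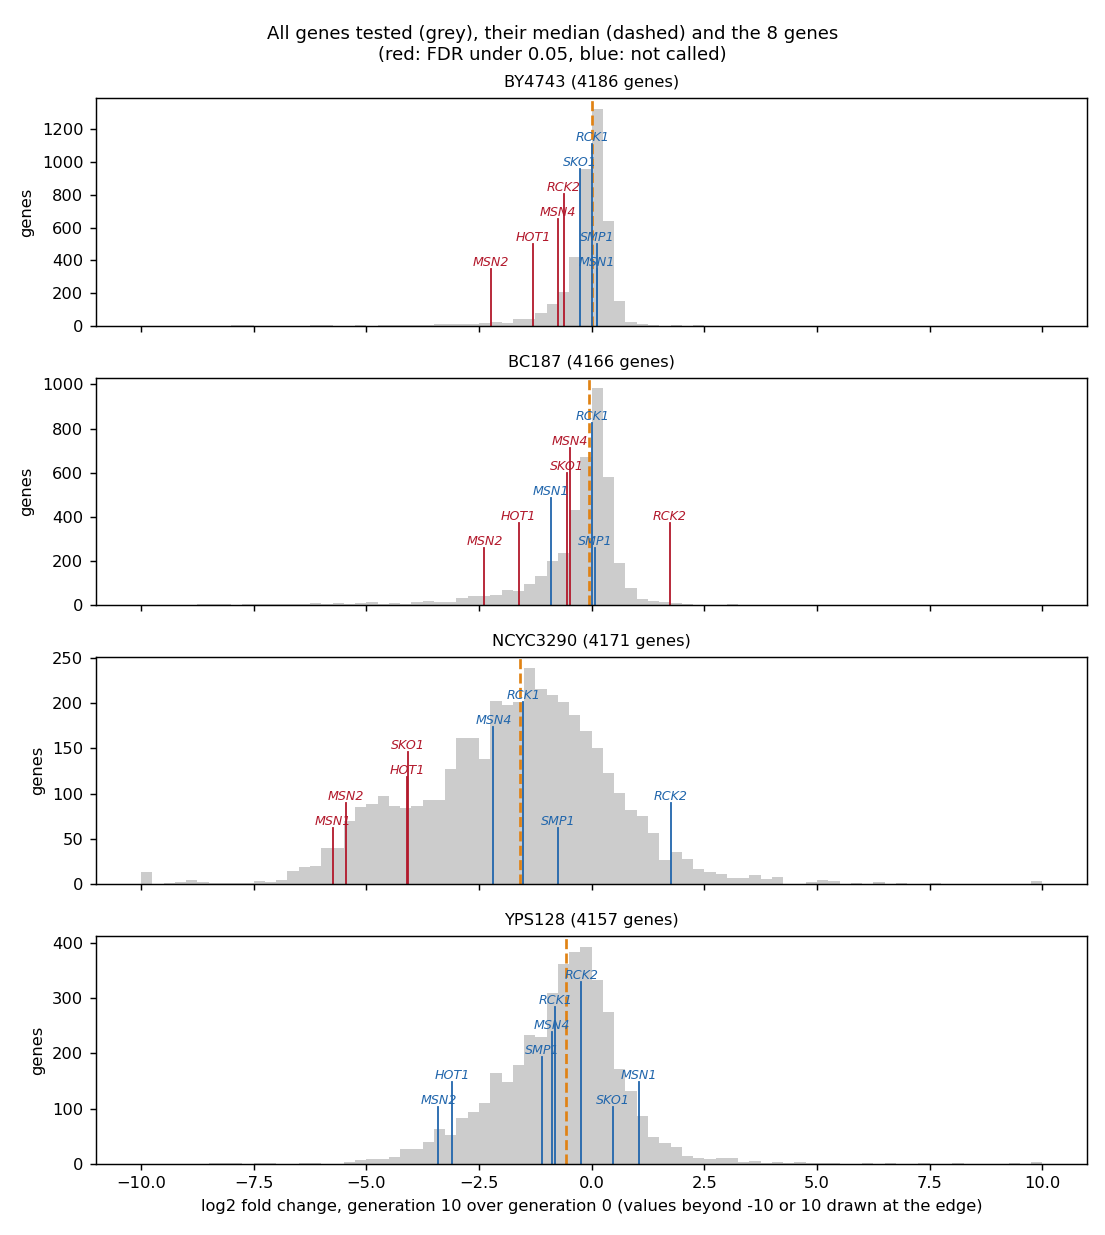
Histograms of the log2 fold change of every gene tested (x axis, generation 10 over generation 0; y axis, number of genes), 1 panel per strain, with the median of all genes as a dashed line and the 8 genes as labelled lines, red where the FDR was under 0.05 and blue otherwise. MSN2 and HOT1 lie well left of the median in every panel, RCK1 stays within 0.25 of the median in every panel, and RCK2 lies on the left in BY4743 and at 1.73 on the right in BC187.

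MSN2 fell furthest of the 8 genes in BY4743 and BC187. It encodes a zinc finger activator that binds the stress response element of many general stress genes, and lies on the minus strand of chromosome XIII, 344403 to 346517 (S288C assembly R64), as 1 coding segment. In BY4743 it had 56.8, 65.2 and 49.4 normalised reads at generation 10, against 280, 265 and 256 at generation 0. BC187 libraries had 31.7, 31.7 and 32.6 at generation 10, against 160, 179 and 161 at generation 0. NCYC3290 libraries had 9.01, 7.98 and 0.535 at generation 10, from 12, 4 and 1 reads, against 232, 255 and 249 at generation 0. In each of these strains the generations were wide apart, with no overlap. The log2 fold change was -2.23 (SE 0.12, FDR = 1.2e-05) in BY4743, or 4.68-fold lower, and -2.38 (SE 0.097, FDR = 2.2e-07) in BC187, or 5.2-fold lower. In NCYC3290 the change was -5.45 (SE 1.1, FDR = 0.011), which is -3.86 relative to the median of all genes. In YPS128 MSN2 had 11, 50.1 and 1.19 at generation 10, against 324, 178 and 169 at generation 0. The groups did not overlap there either, but the generation 10 libraries were widely spread and the change of -3.40 (SE 1.1) had an FDR of 0.073. Over the 6 fits that left out 1 library the change ranged from -5.14 to -2.86 and was called in 1. That was the fit without generation 10 replicate 2, the highest of the 3 (-5.14, FDR = 0.0046), a choice that enlarges a fall by construction.

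MSN4, the paralogue of MSN2, encodes an activator with the same target element, and lies on chromosome XI, 323228 to 325120, plus strand. It had 118, 143 and 139 normalised reads at generation 10 in BY4743, against 237, 220 and 218 at generation 0. Its BC187 values were 157, 139 and 135 at generation 10, against 182, 208 and 209 at generation 0. The log2 fold change was -0.75 (SE 0.096, FDR = 0.00092) in BY4743 and -0.48 (SE 0.088, FDR = 0.0015) in BC187, both without overlap, beside the -2.23 and -2.38 of MSN2 in the same libraries. In NCYC3290 the generation 10 values of 128, 1.99 and 13.4 all lay below the 210, 216 and 229 of generation 0. They differed among themselves by more than an order of magnitude, and the change of -2.18 (SE 1.3) had an FDR of 0.25. The change was called in 1 of the 6 fits that left out 1 library, that without generation 10 replicate 1, the highest (-4.68, FDR = 0.014). In YPS128 MSN4 had 200, 230 and 101 at generation 10, against 311, 333 and 335 at generation 0, a change of -0.88 (SE 0.34, FDR = 0.11). Here too 1 of the 6 such fits gave a call, that without generation 10 replicate 2, the highest (-1.11, FDR = 0.036).

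**Figure D2:**
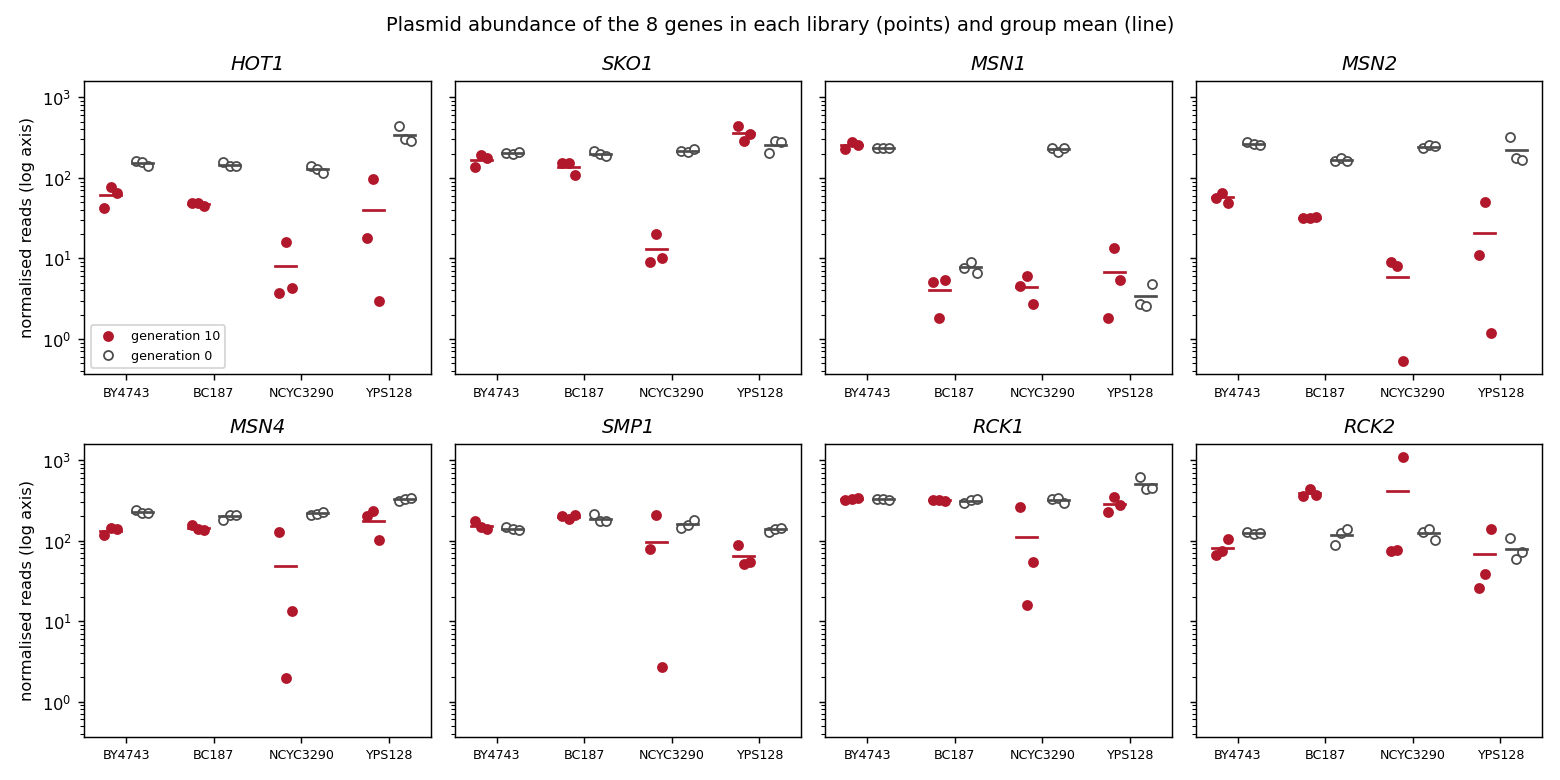
Normalised reads (y axis, log scale) of each of the 8 genes in every library, with generation 10 as filled red points left of generation 0 as open grey points in each strain (x axis), and the mean of each group of 3 as a line. MSN2 and HOT1 at generation 10 lie below generation 0 in all 4 strains, MSN1 starts below 10 normalised reads in BC187 and YPS128, and the generation 10 points of NCYC3290 scatter most.

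HOT1, which encodes the factor that with Hog1 turns on the glycerol synthesis gene GPD1 and the glycerol transporter gene STL1, fell in the same strains as MSN2. It lies on chromosome XIII, 605981 to 608140, plus strand. It had 42.1, 77.9 and 65.1 normalised reads at generation 10 in BY4743, against 162, 156 and 139 at generation 0. In BC187 HOT1 had 48.3, 49.0 and 44.6 at generation 10, against 158, 139 and 140 at generation 0. Each generation 10 value was below every generation 0 value of its strain, and the log2 fold change was -1.30 (SE 0.22, FDR = 0.0031) in BY4743 and -1.62 (SE 0.1, FDR = 2e-06) in BC187. In NCYC3290 HOT1 was down to 5, 8 and 8 reads, or 3.76, 16 and 4.28 normalised reads, at generation 10, against 141, 129 and 114 normalised reads at generation 0. The change there was -4.09 (SE 0.89, FDR = 0.013), or -2.51 relative to the median of all genes, and its FDR was 0.057 to 0.062 without any 1 of the 3 generation 0 libraries. In YPS128 it had 17.9, 98 and 2.98 at generation 10, against 439, 308 and 290 at generation 0. That is the same picture as for MSN2: no overlap, and a change of -3.10 (SE 1) with an FDR of 0.076. It was called in 1 of the 6 fits that left out 1 library, that without generation 10 replicate 2, the highest (-5.01, FDR = 0.0026).

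SKO1 had the lowest FDR of the 8 genes when its change was compared between strains. It encodes a basic leucine zipper factor of the ATF/CREB family that represses osmostress genes together with Tup1 and Cyc8 and becomes an activator once phosphorylated by Hog1, and lies on the minus strand of chromosome XIV, 319416 to 321359. In NCYC3290 it had 9.01, 19.9 and 10.2 normalised reads at generation 10, from 10 to 19 reads, against 216, 207 and 226 at generation 0. In YPS128 it had 440, 284 and 352 at generation 10, against 202, 288 and 283 at generation 0. SKO1 fell in NCYC3290, with a change of -4.08 (SE 0.76, FDR = 0.0079), or -2.50 relative to the median of all genes. In YPS128 the groups overlapped and the change was 0.48 (SE 0.27, FDR = 0.23), which is 1.04 above the median of all genes. With TMM factors it was 1.13 (FDR = 0.047), with DESeq2 1.14 (FDR = 0.014) and with all reads as library size -2.71 (FDR = 0.0007). Its sign in YPS128 thus depended on the scaling. The median of all genes moved as well, to 0.06, 0.07 and -3.64, and SKO1 lay above it under each scaling. The NCYC3290 call was lost without generation 0 replicate 1, where the change was -4.08 with an FDR of 0.05. In BC187 SKO1 had 151, 152 and 108 at generation 10, against 214, 197 and 188 at generation 0, a log2 fold change of -0.54 (SE 0.13, FDR = 0.0063). In BY4743 it had 135, 194 and 176 at generation 10, against 204, 197 and 209 at generation 0. All 3 were lower than generation 0, but the log2 fold change of -0.27 (SE 0.13) did not pass the threshold (FDR = 0.14).

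MSN1 differed between strains before the competition began. It encodes a factor of the same family of DNA-binding domains as Hot1, with roles in osmostress, invasive growth and starch breakdown, and lies on chromosome XV, 99809 to 100957, plus strand. At generation 0 it averaged 235 ± 2.3 normalised reads in BY4743 and 226 ± 13 in NCYC3290, but only 7.72 ± 1.2 in BC187 and 3.37 ± 1.3 in YPS128 (SD, n = 3 each). The paper describes pooled transformants of each strain kept as frozen stock, and names no separate transformation for each replicate. Where libraries share such a pool, these SDs leave out variation between transformations. Its mean starting level thus stood at percentile 58.8 of all rows in BY4743 and at percentile 15.1 in YPS128. These percentiles count all 4871 rows, of which 584 had no read in any library. From its high start in NCYC3290 it was down to 6, 3 and 5 reads at generation 10, or 4.51, 5.98 and 2.68 normalised reads, against 232, 210 and 235 at generation 0. That was the lowest fold change of the 8 genes in any strain, at -5.74 (SE 0.82, FDR = 0.0063), or -4.15 relative to the median of all genes. From a like start in BY4743 its generations overlapped, with 231, 283 and 253 at generation 10, against 238, 234 and 234 at generation 0, and a change of 0.12 (SE 0.082, FDR = 0.29). In BC187 MSN1 had 5.09, 1.80 and 5.43 at generation 10, against 7.50, 8.98 and 6.67 at generation 0, which did not overlap but had an FDR of 0.068 (log2 fold change -0.90, SE 0.39). In YPS128 it had 1.83, 13.4 and 5.36 at generation 10, against 2.74, 2.54 and 4.84 at generation 0, from as few as 4 reads. There the groups overlapped, with a change of 1.04 (SE 0.96, FDR = 0.45). Without generation 10 replicate 2, the highest of the 3, it was 0.03. With all reads as library size it was -1.82, above a median of all genes of -3.64.

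SMP1, the gene of a MADS-box factor of the MEF2 type that Hog1 phosphorylates (chromosome II, 593506 to 594864, minus strand), was called in no strain. In BY4743 it had 174, 147 and 140 normalised reads at generation 10, against 147, 139 and 137 at generation 0. In BC187 SMP1 had 202, 187 and 207 at generation 10, against 213, 174 and 177 at generation 0. The groups overlapped in both strains, with changes of 0.12 (SE 0.1) in BY4743 and 0.08 (SE 0.092) in BC187. In NCYC3290 the generation 10 libraries held 78.1, 207 and 2.68, against 144, 154 and 182 at generation 0, so that a single strain held values both above and far below its start (log2 fold change -0.75, SE 1.2). In YPS128 SMP1 had 87, 50.7 and 54.8 at generation 10, against 129, 141 and 142 at generation 0, without overlap, and the change of -1.10 (SE 0.48) had an FDR of 0.14.

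RCK1 had the smallest change of the 8 genes in BY4743 and BC187. Its product is a kinase related to Rck2 that takes part in the response to oxidative stress, and the gene lies on chromosome VII, 207033 to 208571, plus strand. In BY4743 it had 323, 332 and 335 normalised reads at generation 10, against 331, 327 and 322 at generation 0. The BC187 libraries held 318, 321 and 308 at generation 10, against 294, 316 and 328 at generation 0. The change was 0.01 in both strains, smaller than its SE of 0.05 in BY4743 and 0.056 in BC187. In NCYC3290 the generation 10 values were 264, 16 and 54, against 327, 342 and 293 at generation 0 (log2 fold change -1.52, SE 1, FDR = 0.31), which is 0.06 above the median of all genes. In YPS128 RCK1 had 228, 352 and 279 at generation 10, against 616, 442 and 450 at generation 0, a change of -0.81 (SE 0.25, FDR = 0.07) and -0.25 relative to the median. Both sets were without overlap. In NCYC3290 and in YPS128 RCK1 was called in 1 of the 6 fits that left out 1 library, that without the highest generation 10 value. The FDR was 0.02 in NCYC3290 without generation 10 replicate 1 (-3.16), and 0.019 in YPS128 without generation 10 replicate 2 (-0.99).

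RCK2 fell in BY4743 and rose in BC187, which none of the other 7 genes did. The gene lies on chromosome XII, 634252 to 636084, plus strand. In BC187 it had 362, 439 and 369 normalised reads at generation 10, against 89.3, 124 and 139 at generation 0. In BY4743 it had 66.6, 73.2 and 104 at generation 10, against 129, 122 and 123 at generation 0. The generations did not overlap in either strain, and they were ordered in opposite ways. The rise in BC187 was 1.73 (SE 0.15, FDR = 1.7e-05), or 3.31-fold, which was higher than 99.3% of the changes of all genes there, and the call held without any 1 of the 6 libraries. The change in BY4743 was -0.62 (SE 0.17, FDR = 0.028), and this call was less firm: without 1 of the generation 0 replicates 1, 2 and 3 the FDR was 0.099, 0.082 and 0.088, and without generation 10 replicate 2 it was 0.08. In NCYC3290 RCK2 had 75.1, 75.8 and 1090 at generation 10, from 100, 38 and 2045 reads, against 129, 138 and 102 at generation 0. A single library was thus far above and the other two below every generation 0 value. The change of 1.76 (SE 1.1, FDR = 0.30) turned to -0.70 (FDR = 0.13) without generation 10 replicate 3, and was 3.84 (FDR = 0.00049) with DESeq2. In the joint fit it was 1.76 with an FDR of 0.047. In YPS128 it had 25.6, 38.9 and 138 at generation 10, against 107, 59.1 and 71.8 at generation 0, which overlapped (log2 fold change -0.23, SE 0.75, FDR = 0.84).

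**Figure D3:**
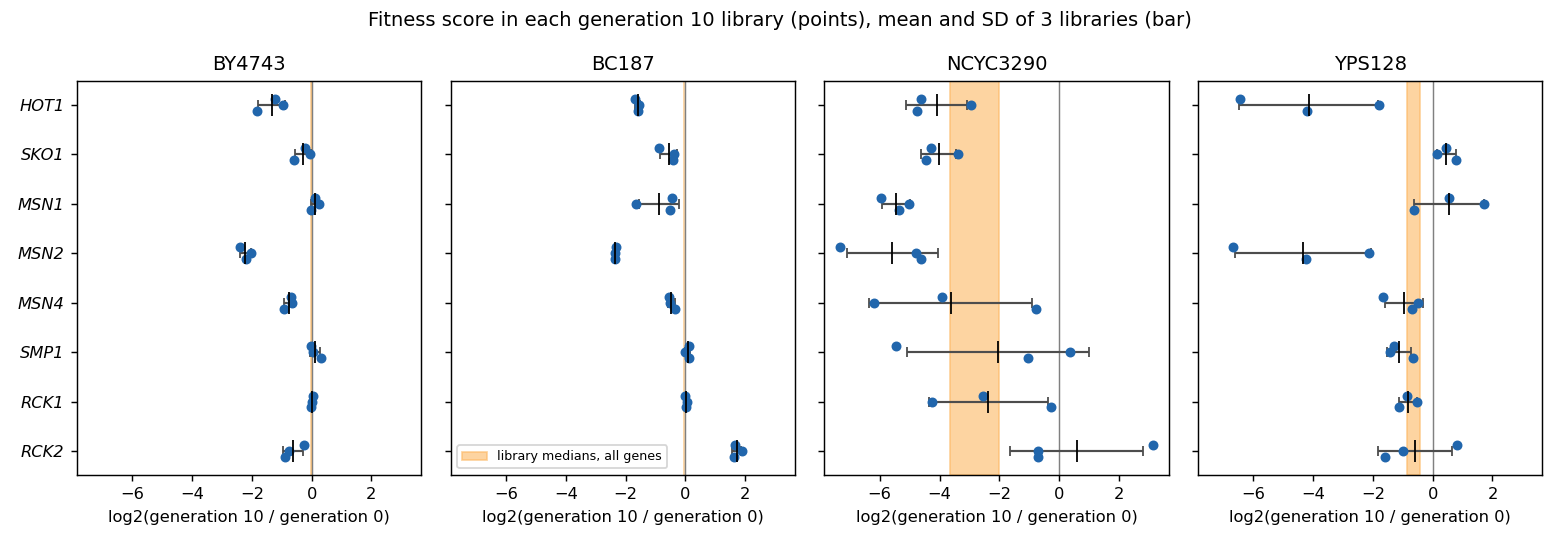
Fitness score of each gene (rows) in each of the 3 generation 10 libraries (points), as log2 of its normalised reads over the mean of generation 0 of the strain with a pseudocount of 1 (x axis), with the mean and SD as bars and the range of the library medians over all genes shaded. BY4743 and BC187 scores lie within narrow bars, and those of NCYC3290 lie around shaded medians of -3.64 to -2.02.

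The order of the strains differed from gene to gene. For MSN2 and HOT1 the lowest fold change was in NCYC3290, then YPS128, BC187 and BY4743, but the order of the first 2 depended on the processing. HOT1 was lower in YPS128 with TMM factors (-2.63 in YPS128 and -2.10 in NCYC3290), and relative to the median of all genes (-2.54 in YPS128 and -2.51 in NCYC3290). With DESeq2 both genes were lower in YPS128, HOT1 at -2.68 in YPS128 and -1.91 in NCYC3290, and MSN2 at -2.97 in YPS128 and -2.80 in NCYC3290. BC187 minus BY4743, the neighbours at the top, was -0.15 for MSN2 (SE 0.99) and -0.31 for HOT1 (SE 0.96) in the fit of all libraries, and for neither gene did any pair of neighbours in this order differ at an FDR under 0.05. For SKO1 and MSN1 NCYC3290 was again lowest, but YPS128 was highest. That rank of YPS128 was lost for both genes with all reads as library size. There SKO1 at -2.71 and MSN1 at -1.82 still lay above the YPS128 median of all genes, -3.64. For MSN1 that rank was also lost without YPS128 generation 10 replicate 2, where the 0.03 of YPS128 lay below the 0.12 of BY4743. The order for MSN4 was NCYC3290, YPS128, BY4743 and BC187. With TMM factors NCYC3290 was highest at 0.03, which lay below its median of all genes, 0.48. For MSN4, SMP1 and RCK1 no pair of strains differed at an FDR under 0.05. For RCK2 BC187 and NCYC3290 stood at the top with 1.73 and 1.76, and BY4743 at the bottom, but without generation 10 replicate 3 NCYC3290 was lowest at -0.70. Relative to the median of all genes, MSN2 and HOT1 stood at -2.84 and -2.54 in YPS128, and MSN1 at 1.60. MSN4 stood at -0.32 in YPS128 and -0.59 in NCYC3290. SMP1 stood at -0.54 in YPS128 and 0.84 in NCYC3290, and RCK2 at 0.33 in YPS128 and 3.34 in NCYC3290.

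Whether a gene's change differed between strains was tested in 1 fit of all 24 libraries. The change of SKO1 differed (FDR = 9.8e-07) and so did that of MSN1 (FDR = 7.5e-06), as did 41.3% of all 4215 genes at an FDR under 0.05. The other 6 had FDRs from 0.064 (MSN2) and 0.08 (HOT1) to 0.61 (SMP1). Among the 48 comparisons of 8 genes in 6 pairs of strains 9 passed, and all 9 set NCYC3290, whose libraries they share, against another strain. NCYC3290 minus BY4743 was -3.85 for SKO1 (SE 0.47, FDR = 1.9e-06), -5.90 for MSN1 (SE 0.81, FDR = 7.2e-06), -3.29 for MSN2 (SE 1.1, FDR = 0.019) and -2.88 for HOT1 (SE 1, FDR = 0.029), in a comparison in which 42.3% of all genes passed. The change in NCYC3290 was also lower than in BC187 for SKO1, MSN1 and MSN2, where 39.5% passed, and lower than in YPS128 for SKO1 and MSN1, where 31.9% passed. The NCYC3290 fold changes lay lower for genes in general, and relative to that shift the difference from BY4743 was -2.37 for SKO1, -4.42 for MSN1, -1.81 for MSN2 and -1.40 for HOT1. The 3 pairs without NCYC3290 gave no call for the 8 genes, where 1.23% of genes passed between BC187 and BY4743, 3.23% between YPS128 and BY4743 and 3.99% between YPS128 and BC187. When each group was given a variance of its own (voomLmFit), none of the 9 passed, with FDRs from 0.13 to 0.39. With TMM factors the 2 differences of MSN2 and that of HOT1 did not pass, with FDRs from 0.35 to 0.45.

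The fit of all libraries uses a single spread for strains whose replicates differ widely in tightness. Fits of strain pairs of like spread were therefore added after the data had been seen. Between BC187 and BY4743 alone, where 44.7% of 4205 genes differed, BC187 minus BY4743 was 2.34 for RCK2 (SE 0.25, FDR = 6.3e-06), against 2.35 (SE 1, FDR = 0.63) in the fit of all libraries. For MSN1 it was -1.02 (FDR = 0.028), from a start in BC187 of under 10 normalised reads. The other 6 genes had FDRs of 0.12 or more, with differences between -0.31 and 0.28. Between NCYC3290 and YPS128 alone, where 12.1% of 4184 genes differed, NCYC3290 minus YPS128 was -4.57 for SKO1 (SE 0.77, FDR = 0.0035) and -6.78 for MSN1 (SE 1.2, FDR = 0.0047). Relative to the general shift these differences were -3.61 and -5.82.

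Within a library the paralogues can be set against each other directly. MSN2 had a lower fitness score than MSN4 in all 3 generation 10 libraries of BY4743, BC187 and YPS128, and in 2 of 3 of NCYC3290. The mean difference, MSN2 minus MSN4, was -1.46 ± 0.23 in BY4743, -1.87 ± 0.13 in BC187, -3.39 ± 1.7 in YPS128 and -1.95 ± 2.9 in NCYC3290 (SD, n = 3 each, no test). The library of NCYC3290 in which the order turned was replicate 2, at 1.42, where MSN4 had 1 read and MSN2 had 4. RCK1 minus RCK2 was above 0 in all 3 libraries of BY4743 (0.65 ± 0.31) and below 0 in all 3 of BC187 (-1.71 ± 0.13). In the other strains its sign varied between libraries, with a range of -1.64 to 0.49 for YPS128 and of -5.69 to 0.42 for NCYC3290. The kinase pair therefore changed its order between the tightly replicated strains, while the MSN2 and MSN4 pair kept its order in them.

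**Figure D4:**
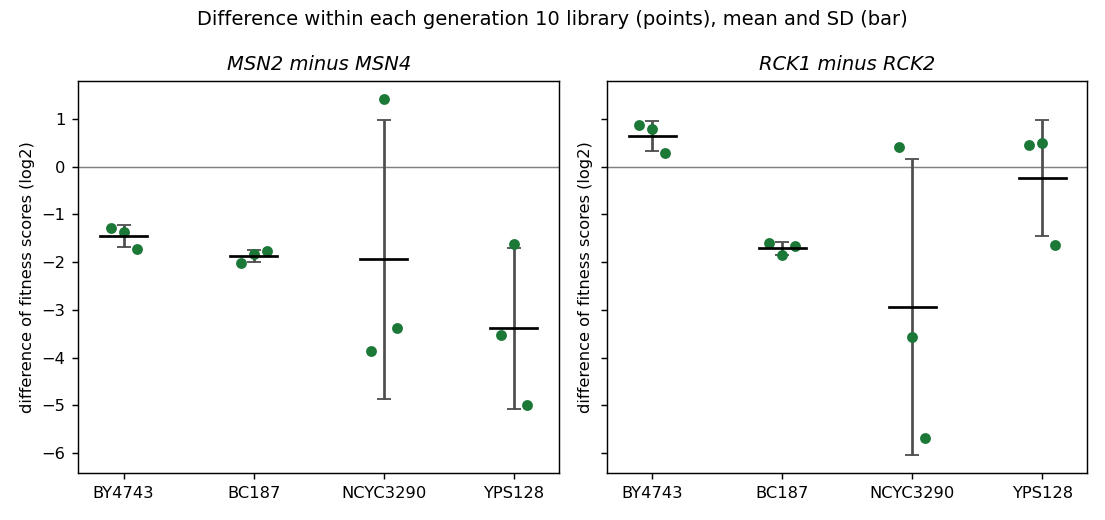
Difference of the fitness scores of the paralogues MSN2 minus MSN4 (left) and RCK1 minus RCK2 (right) in each generation 10 library (points) with mean and SD (y axis, log2) by strain (x axis). MSN2 lies below MSN4 in 11 of 12 libraries, and RCK1 lies above RCK2 in BY4743 and below it in BC187.

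Since the plasmid copies keep their native flanking sequence, the 500 bases before each start codon were searched in R64 for the letters of 2 elements tied to these factors, on both strands. The stress response element bound by Msn2 and Msn4 (AGGGG) was present before SKO1 and MSN1, 2 of 8 genes, against 34.0% of 6019 protein-coding genes. The core of the element bound by Sko1 (TGACGT) was present before RCK1, 1 of 8 genes, against 13.4% of all genes. Any tie between a match and the change of its gene was not tested. These were the only matches in the 8 windows, each shown as 30 bases on the strand of the gene with the match in capitals.
SKO1, chrXIV:321563-321592, minus strand: agttactaccaaAGGGGttcaacgtaaaag
MSN1, chrXV:99734-99763, plus strand: cattatacaaagCCCCTtgcttataagaaa
RCK1, chrVII:206806-206835, plus strand: ttcgcggatcatTGACGTataaatacttca
In MSN1 the match reads in the opposite direction to the gene (CCCCT). The matches begin 221, 63 and 215 bases before the start codons of SKO1, MSN1 and RCK1. The other 5 genes held neither run of letters in these windows, and a match is a run of letters, not a site shown to be bound.

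Calls were also made in the upstream part of the pathway. Of 16 listed genes of HOG sensors and kinases, 5 of 11 tested fell and 2 rose in BY4743, 6 of 10 fell and 1 rose in BC187, 3 of 10 fell in NCYC3290 and 1 of 10 fell in YPS128. The general shares of falls and rises were 19.5% and 18.2% (BY4743), 38.1% and 28.5% (BC187), 26.1% and 1.89% (NCYC3290), and 8.47% and 4.11% (YPS128), so the counts in NCYC3290 and YPS128 were near the general share. Their median change was -0.31 (BY4743), -0.87 (BC187), -1.39 (YPS128) and -1.84 (NCYC3290). PBS2, the gene of the MAP kinase kinase that activates Hog1, averaged 38.1 ± 20 normalised reads at generation 10 and 160 ± 7.8 at generation 0 in BY4743 (log2 fold change -2.07, FDR = 0.0052), beside the -2.23 of MSN2. In BC187 PBS2 changed by -1.96 (FDR = 1.4e-05), and STE20, the gene of the kinase at the head of the Sho1 branch, by -2.58. CDC42, the gene of the GTPase that binds Ste20, changed by -3.16 in YPS128. SHO1, a sensor gene, had no read in any generation 10 library of BY4743, which is at least 8.12-fold lower than the 1.79 ± 0.74 normalised reads of generation 0. SSK2, a kinase gene of the other branch, had at most 1 read in a generation 10 library of NCYC3290 and averaged 0.178 ± 0.31 normalised reads, against 17.6 ± 3.3 at generation 0. HOG1 itself averaged 15.5 ± 4.8 at generation 10 and 298 ± 9.7 at generation 0 in NCYC3290 (-4.26, FDR = 0.0066), beside the -4.08 of SKO1 and the -4.09 of HOT1. YPD1, the gene of the phosphorelay protein, rose by 0.63 in BY4743 and by 0.34 in BC187, and OPY2, the gene of a membrane anchor, by 0.38 in BY4743. Of 4 tested genes of Hog1 phosphatases, PTC1 and PTC2 rose in BC187, by 0.40 and 0.57. Of 6 tested cofactors, 1 fell and 1 rose in BY4743, 2 fell and 1 rose in BC187, 2 fell in NCYC3290 and 1 fell in YPS128. SSN8, the cyclin of the Mediator kinase module, fell in BY4743, BC187 and YPS128, with changes of -2.71, -6.18 and -3.59, while SSN3, the kinase of that module, rose by 0.21 in BY4743 and 0.27 in BC187. GCN5, the gene of a histone acetyltransferase, changed by -4.10 in NCYC3290. TUP1, the corepressor partner of Sko1, had no read in any generation 10 library of NCYC3290, which is at least 4.9-fold lower than generation 0. In BC187 it had at most 1 read in a generation 10 library and averaged 0.0189 ± 0.033 normalised reads, against 4.68 ± 1.6 at generation 0.

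Genes that the osmostress response induces were called about as often as genes in general. Of 23 tested, 4 fell and 3 rose in BY4743, 9 fell and 7 rose in BC187, 5 fell and 0 rose in NCYC3290 and 2 fell and 0 rose in YPS128, with medians of -0.08 and -0.16 in BY4743 and BC187, -1.23 in NCYC3290 and -0.53 in YPS128. As shares of the 23, 17.4% fell and 13.0% rose in BY4743, where 19.5% and 18.2% of all genes did, and 39.1% fell and 30.4% rose in BC187, where 38.1% and 28.5% did. In NCYC3290 21.7% fell, where 26.1% of all genes did, and in YPS128 8.7% fell, where 8.47% did. GPD1, the Hot1 target for glycerol synthesis, fell in BY4743 (-1.90) and BC187 (-2.31), as HOT1 did. In NCYC3290, where HOT1 also fell, GPD1 was not called (-2.24, SE 1.3, FDR = 0.25), nor was it in YPS128 (-2.96, SE 1.3, FDR = 0.15). GPP2, of the next step of that route, averaged 1280 ± 210 at generation 10 and 602 ± 7.5 at generation 0 in BY4743, a rise of 1.09, while in BC187 it changed by -2.35. STL1, another Hot1 target, rose by 0.37 in BC187, where the trehalose synthesis gene TPS1 rose by 0.59, and HAL1, a gene of salt tolerance, rose by 0.60 in BY4743. The stress gene DDR48 changed by -1.08 in BY4743 and had no read in any generation 10 library of NCYC3290, at least 8.99-fold lower than generation 0. The chaperone genes HSP26 and HSP104 changed by -4.26 in NCYC3290 (HSP26) and -3.32 in YPS128 (HSP104), and the phosphoglucomutase gene PGM2 by -2.01 in YPS128.

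Relatives of the 8 genes were also counted. Of the factors of the same DNA-binding families, 10 of 23 tested fell and 4 rose in BY4743, 10 of 22 fell and 7 rose in BC187, 8 of 22 fell and 1 rose in NCYC3290 and 7 of 22 fell and 3 rose in YPS128. As shares, 43.5% fell and 17.4% rose in BY4743, beside 19.5% and 18.2% of all genes, and 45.5% fell and 31.8% rose in BC187, beside 38.1% and 28.5%. They were 36.4% and 4.55% in NCYC3290, beside 26.1% and 1.89%, and 31.8% and 13.6% in YPS128, beside 8.47% and 4.11%. Their medians were -0.37 in BY4743, -0.12 in BC187, -1.40 in YPS128 and -2.16 in NCYC3290. The zinc finger gene CRZ1, whose product acts in calcineurin signalling, rose by 1.26 in BY4743, 4.75 in BC187 and 6.01 in YPS128. USV1, another zinc finger gene of the stress response, rose by 4.88 in NCYC3290 and 4.07 in YPS128, but fell in BC187 (-0.29). SKN7, of the heat shock factor type, changed by -5.62 in NCYC3290 and -2.94 in YPS128. MIG3, a zinc finger gene, changed by -2.19 in BY4743 and -3.88 in BC187, and GIS1, another, by -1.19 in BY4743 and -3.62 in YPS128. GCN4, the basic leucine zipper activator of amino acid synthesis, changed by -2.85 in BC187. The MADS-box gene ARG80 changed by -5.32 in NCYC3290 and -0.4 in BC187, but rose by 0.25 in BY4743. CIN5, a basic leucine zipper gene, rose by 0.53 in BY4743, 0.39 in BC187 and 1.38 in YPS128. HSF1, the heat shock factor gene, rose by 1.01 in BC187 but changed by -2.12 in YPS128, where it fell. Of 6 tested MAP kinases and calmodulin kinase relatives, 2 rose in BY4743 and 4 in BC187 with none called lower, and 1 fell and 1 rose in each of NCYC3290 and YPS128. KDX1, a MAP kinase relative, changed by -3.24 in NCYC3290 and -1.19 in YPS128, but rose by 0.11 in BC187. KSS1, a MAP kinase gene, rose by 0.29 in BY4743, and DUN1, a checkpoint kinase gene, rose by 0.78 in BC187. CMK2, a calmodulin-dependent kinase of the same family as Rck2, rose in all 4 strains, by 0.86 in BY4743 and 3.57 in BC187, and by 9.90 in YPS128 and 8.91 in NCYC3290. Its barcode reached 419972 reads in a generation 10 library of NCYC3290, where RCK2 reached 2045.

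**Figure D5:**
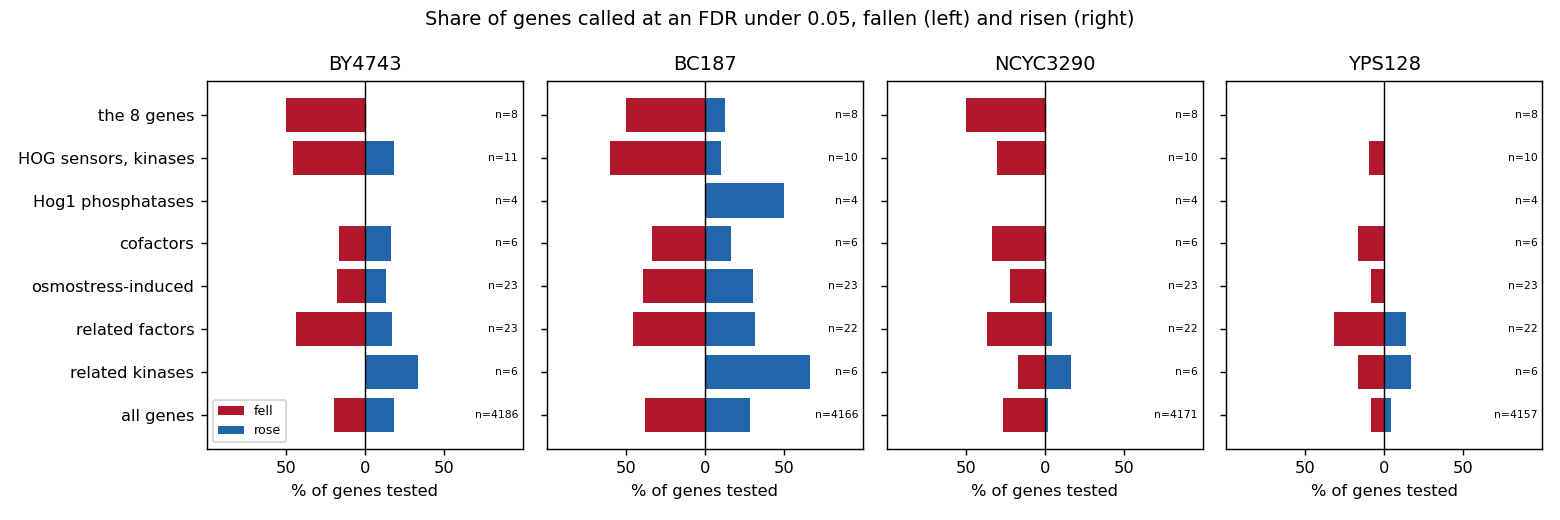
Share of the genes tested in each list that fell (red, to the left) or rose (blue, to the right) at an FDR under 0.05 (x axis, %), in each strain, with the number tested at the right and all genes in the bottom row. The 8 genes show falls of 4 of 8 in BY4743, BC187 and NCYC3290 and none in YPS128.

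Over the 12 fitness scores, each minus the median of its library, the genes whose scores were nearest to those of a member were found among 4140 rows by the root mean square difference. RCK1 had the closest neighbour, CPA1 at 0.244, and RCK2 the most distant, PUT4 at 0.955. HOT1 was nearest to STU2 (0.581), PBP1 (0.613) and SKY1 (0.625), and MSN2 to SQS1 (0.688), PBP1 (0.74) and FAS1 (0.787), so that PBP1 stood in both lists. SKO1 was nearest to MXR1 (0.46), ERG9 (0.492) and ISM1 (0.507), and MSN1 to SLU7 (0.724), ERG9 (0.777) and RAS1 (0.786), with ERG9 shared. These are likenesses over 12 libraries in which the wide spread of NCYC3290 and YPS128 weighs most.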

How the data were processed

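Plasmid barcodes were amplified by the authors with indexed primers and read by single-end sequencing. The deposited table gives raw read counts per barcode, without normalisation. The tool that assigned reads to barcodes is not given in the sources used here, and no molecular identifiers were used, so counts of a barcode are not independent molecules. Of 4871 rows, 584 had 0 reads throughout, and 0 columns were left without a sample. Groups and replicate numbers came from the sample titles.

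Library size was the total over rows with no sample above 50000 reads, as in the methods of the study, which left 25 rows out of the total but not out of the tests. Generation 10 was tested against generation 0 in each strain's 6 samples by the quasi-likelihood functions of edgeR 4.0.16 under R 4.3.3, on rows kept by filterByExpr (minimum count 10). An SE is the size of the log2 fold change divided by the root of its F statistic. Strain differences came from a fit of the 24 samples with 8 group means. Fitness scores used a pseudocount of 1 normalised read. No imputed reads were added. Gene symbols and positions were matched by systematic name to RefSeq R64 (4811 of 4817 names), and the printed sequences are RefSeq's. Replicates of a group differed by more than counting noise. The scripts were checked on simulated counts. Alternatives were TMM factors, all reads as library size, DESeq2 1.42.0, no filter, a replicate block, voomLmFit of edgeR, the joint fit and leaving out each library.

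The 8 genes and the gene lists were chosen with earlier results of these data known. From each list, genes were named by rule: up to 2 of the largest rises and 2 of the largest falls per strain at an FDR under 0.05 without overlap of the generations. All genes that this rule selects are named, with the values of the strain in which it selects them. GPD1 in NCYC3290 and YPS128 lies outside the rule and was added after its values were seen. The same holds for some values of HSP26, HSP104, CIN5, HSF1, USV1, SKN7, GIS1, ARG80 and KDX1. Other named genes were also called in strains whose values are not given.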

Additional observations from a re-analysis of the deposited data

Results flagged for a closer look

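The changes of 3 of the 8 genes differed between strains in the test over all strains or in a fit of 2 strains alone. Both used edgeR's quasi-likelihood test and Benjamini-Hochberg adjustment over all genes. MSN2 and HOT1 differed only in pairwise comparisons with NCYC3290 in the fit of all libraries. For SKO1 the strains differed in the fit of all libraries (FDR = 9.8e-07) and NCYC3290 differed from YPS128 in a fit of those strains alone (FDR = 0.0035). For MSN1 the values were 7.5e-06 over all strains, 0.0047 between NCYC3290 and YPS128, and 0.028 between BC187 and BY4743. MSN1 began at 226 normalised reads in NCYC3290 and 3.37 in YPS128, where a generation 10 library had as few as 4 reads, and at 7.72 in BC187 and 235 in BY4743. The part of these starting levels in the differences was not tested. Replicates that share a pool of transformants cannot show variation between transformations of a strain, for any gene named here. The MSN1 change in YPS128, 1.04, was 0.03 without generation 10 replicate 2. For RCK2 BC187 differed from BY4743 in a fit of those strains alone (FDR = 6.3e-06), with 3 of 3 generation 10 values above generation 0 in BC187 and 3 of 3 below in BY4743. In the fit of all libraries that RCK2 difference had an FDR of 0.63, and the RCK2 test over all strains one of 0.11. The fits of 2 strains alone were added after the data had been seen. The share of all genes that differed was 41.3% in the fit of all libraries, 44.7% between BC187 and BY4743 alone and 12.1% between NCYC3290 and YPS128 alone.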

How the results depend on the processing

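The generation 10 libraries of NCYC3290 and YPS128 were shallow and dominated by few barcodes, and the scaling moved the median of all genes most there. TMM moved the median of all genes in NCYC3290 to 0.48, DESeq2 to 0.75 and all reads to -5.36, against -1.58 as reported, and all reads moved it to -3.64 in YPS128. In NCYC3290, 1 of the 8 genes was called with TMM (MSN1), 7 with all reads (falls of all but RCK2) and 7 in the joint fit (6 falls and the rise of RCK2). Of all genes there, 473 of 4171 were called with TMM, 3743 of 4171 with all reads and 2469 of 4215 in the joint fit. In YPS128, 1 was called with TMM (SKO1), 7 with all reads, 3 with DESeq2 (MSN2, HOT1 and SKO1), and MSN2 and HOT1 alone (2) under the replicate block, with voomLmFit and in the joint fit. Of 4157 genes in YPS128, 632 were called with TMM, 3900 with all reads, 1263 with DESeq2, 717 under the block and 992 with voomLmFit. In the joint fit, with its shared spread, 0 were called in BY4743 and 1 in BC187 (MSN2), where 70 and 382 of 4215 genes were. Between strains, 8 genes differed with all reads and 4 with voomLmFit, and of the 48 pairwise comparisons 35 passed with all reads and 2 with voomLmFit (RCK2 and MSN1 between BC187 and BY4743), so none of the 9 calls against NCYC3290 passed there. With a pseudocount of 10, MSN2 minus MSN4 was -1.62 in BC187, -2.35 in YPS128, -1.30 in NCYC3290 and -1.34 in BY4743, against -1.87, -3.39, -1.95 and -1.46 with 1. Leaving out 1 library gave 3 to 5 calls in BY4743 and 5 in BC187, 0 to 4 in YPS128 and 2 to 6 in NCYC3290, and 2 to 6 genes that differed between strains; SKO1 and MSN1 differed in all 24 such fits. The 2 calls in NCYC3290 came without generation 0 replicate 1 (MSN2 and MSN1), the 6 without generation 10 replicate 1, and the 4 in YPS128 without generation 10 replicate 2. Between strains, 6 genes differed without NCYC3290 generation 10 replicate 1, 5 without YPS128 generation 10 replicate 3, and 4 without NCYC3290 generation 10 replicate 2 or 3 or YPS128 generation 10 replicate 2.

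Directions turned for uncalled genes. In NCYC3290, SMP1, RCK1 and MSN4 were 1.25, 0.67 and 0.03 with TMM and 1.73, 1.37 and 0.79 with DESeq2, and RCK2 was -1.99 with all reads and -0.7 to 2.26 without 1 library. In YPS128, RCK2 was 0.45 with TMM, 0.48 with DESeq2 and -1.29 to 0.16 without 1 library (above 0 in 3 such fits), and with all reads SKO1 was -2.71 (FDR = 0.0007) and MSN1 -1.82. RCK1 in BC187 was -0.04 with all reads and -0.03 to 0.05 without 1 library. For RCK2, NCYC3290 minus BY4743 was -1.36 and YPS128 minus BY4743 -2.92 with all reads, NCYC3290 minus BC187 was -3.67 with all reads, -1.35 under the block and -0.68 with voomLmFit, and YPS128 minus BY4743 was -0.07 with voomLmFit. The median of all genes moved under the same scalings. In NCYC3290 it was 0.48 with TMM, 0.75 with DESeq2 and -5.36 with all reads, and in YPS128 0.06, 0.07 and -3.64. With all reads, RCK2 in NCYC3290 and SKO1 and MSN1 in YPS128 lay above that median, as they did in the main fits. The cause of the turns was not tested. Of 224 single-gene values under other settings, 176 kept direction and call. DESeq2 gave no adjusted p for MSN4 in the test between strains.

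In their deviations, same-numbered libraries of the generations correlated between -0.42 and 0.12, and differently numbered ones between -0.4 and 0.44. This gave no sign of a pairing, but the spread of generation 10 could hide one. With the replicate number as a block, there were 2 calls in YPS128, 4 each in BY4743 and NCYC3290 and 5 in BC187, and 12 pairwise comparisons passed.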
